A study of Mus musculus with 4 samples.

Results

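The ligands and receptors of the tumor necrosis factor (TNF) superfamily were examined in Brg1-sufficient and Brg1-deficient group 3 innate lymphoid cells (ILC3s). The members were the protein-coding genes whose symbol starts with Tnfsf or Tnfrsf, together with Tnf, Lta, Ltb, Ltbr, Fas, Fasl, Cd27, Cd70, Cd40, Cd40lg, Eda and Ngfr. This gave 44 of the 53379 genes in the expression table, 19 ligands and 25 receptors.

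Brg1, encoded by Smarca4, is the ATPase of the SWI/SNF (BAF) chromatin remodeling complex. ILC3s were sorted from the small intestinal lamina propria of mixed bone marrow chimeras and sequenced to find which transcripts depend on Brg1 within the cell. The control donor was Thy1.2 Rag1-/- Smarca4 f/f. The other donor was Thy1.1Thy1.2 Rag1-/- and carried the same Smarca4 f/f alleles, deleted in its ILC3s by a transgene. Both donors lacked Rag1 and so carried no mature T or B cells of their own. Equal numbers of marrow cells from both donors were mixed and given to the same sublethally irradiated Rag2-/- Il2rg-/- hosts. Cells were sorted 6 to 7 weeks later as Thy1.2high CD45low, and the absence or presence of Thy1.1 set the donors apart. There were 2 libraries of each genotype, described as biological duplicates. The loss of Brg1, the deleting transgene and the Thy1.1 allele always went together and cannot be told apart. The ages of the donors and whether the 2 libraries of a genotype came from separate hosts were not given in the sources used here, so the errors below measure the spread between libraries only.

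Values are FPKM, fragment counts scaled by transcript length and sequencing depth. They had also been brought to a common distribution across the 4 libraries, so levels of different genes can be compared only approximately. No counts were given, so the sequencing depth behind a value is unknown, and between 30046 and 36929 genes were above 0 in a library. The targeted gene Smarca4 measured 17.1 and 16.7 FPKM in Brg1-sufficient ILC3s against 9.98 and 9.03 FPKM in Brg1-deficient ILC3s, a log2 fold change of -0.77 ± 0.16 (SE, adjusted p = 0.153). The ILC3 markers Il7r, Kit and Il23r lay between 209 and 583 FPKM in all 4 libraries. Ncr1, the gene of NKp46, measured 31.3 and 35.5 FPKM against 5.37 and 6.02 FPKM (adjusted p = 0.033), and of the 8 tested markers of NKp46+ ILC3s, ILC1s and NK cells 5 were lower and 2 higher without overlap. The higher ones were Gzma, at 50.8 and 103 FPKM against 397 and 218 FPKM, and Klrk1, at 105 and 113 FPKM against 165 and 190 FPKM. Among all genes tested, 20.2% were lower and 24.4% higher without overlap. Epithelial markers summed to 4.25 FPKM at most, and stromal and endothelial markers to between 65.1 and 90.0 FPKM, nearly all of it from Pecam1. In such bulk samples, fewer cells of a type and less RNA per cell cannot be told apart.

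TNF superfamily ligands are mostly trimeric proteins that are held on the cell surface or released from it, and they bind receptors with cysteine-rich repeats. Receptors with a death domain can trigger cell death, the others recruit TRAF adaptors, and many of both kinds activate NF-κB. In ILC3s the family is best known through the lymphotoxins and RANKL: lymphoid tissue inducer cells, which are the fetal and CCR6+ form of ILC3s, use them to instruct stromal and epithelial cells to build lymph nodes, Peyer's patches and cryptopatches.

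Of the ligands, Ltb and Tnf lie next to each other and differed in opposite directions, and Tnfsf14 had the smallest adjusted p of all the members. Their upstream sequences are therefore shown, from RefSeq on GRCm38.p6, each read 5′ to 3′ on the strand of its gene and ending before the first annotated exon base. Capitals mark the letters GGNNTTTCC of an NF-κB type site, TGANTCA of an AP-1 type site or TATAAA of a TATA box, searched on both strands.
Ltb: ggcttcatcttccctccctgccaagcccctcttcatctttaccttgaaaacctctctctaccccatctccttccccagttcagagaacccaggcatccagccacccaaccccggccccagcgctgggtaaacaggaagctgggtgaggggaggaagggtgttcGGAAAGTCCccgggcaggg
Tnf: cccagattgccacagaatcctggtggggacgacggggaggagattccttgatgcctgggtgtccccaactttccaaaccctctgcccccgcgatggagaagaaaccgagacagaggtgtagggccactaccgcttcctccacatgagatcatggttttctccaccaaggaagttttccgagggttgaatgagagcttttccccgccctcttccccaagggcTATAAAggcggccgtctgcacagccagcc
Tnfsf14: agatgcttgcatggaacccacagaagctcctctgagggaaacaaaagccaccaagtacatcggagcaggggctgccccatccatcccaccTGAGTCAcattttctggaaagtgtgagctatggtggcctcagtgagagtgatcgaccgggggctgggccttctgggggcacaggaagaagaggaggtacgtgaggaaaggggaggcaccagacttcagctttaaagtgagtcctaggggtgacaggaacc
The Ltb sequence is chr17:35194257-35194438 on the plus strand, and its NF-κB letters, which match on the minus strand, lie 87 to 79 bases before the RefSeq start. The Tnf sequence is chr17:35202008-35202257 on the minus strand, and its TATA letters lie 29 to 24 bases before the start. The Tnfsf14 sequence is chr17:57194182-57194431 on the minus strand, and its AP-1 letters, a stretch that matches the pattern TGANTCA on either strand, lie 160 to 154 bases before the start. The 250 bases before a gene start were searched in 32851 promoter windows. Of these windows, 4.93% held the NF-κB letters, 6.75% the AP-1 letters and 12.4% the TATA letters. Of the 34 members with such a window, 4 held the first (Ltb, Tnfrsf9, Tnfrsf13b and Tnfrsf25), 6 the second (Fas, Tnfrsf8, Tnfrsf9, Tnfsf13, Tnfsf13b and Tnfsf14) and 6 the third (Lta, Tnf, Tnfrsf17, Tnfrsf23, Tnfsf11 and Tnfsf18). These are matches of letters only, and no binding or accessibility was measured here.

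Of the 44 members, 29 had a mean above 1 FPKM in either genotype and were tested, 10 ligands and 19 receptors. The other 15 were close to the floor in all 4 libraries. With limma and Benjamini-Hochberg adjustment over all 14739 genes tested, no member reached an adjusted p under 0.05 in either direction. Across all genes tested, 0.224% were lower and 0.0814% higher in Brg1-deficient ILC3s at that threshold. At an unadjusted p under 0.05, 6 members were lower and 7 were higher, and 12.6% of all genes tested passed. The differences below are therefore given with their intervals and in the looser terms of the criteria the study used for its gene lists: an unadjusted p under 0.05, an adjusted p under 0.4, a mean above 5 FPKM in either genotype and group means apart by more than 2 to the power 0.5.

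Of the 29 members tested, 4 met these list criteria as lower in Brg1-deficient ILC3s, namely Ltb, Tnfrsf1a, Cd27 and Cd40, beside 4.37% of all genes tested. There were 7 that met them as higher, namely Tnf, Tnfsf14, Tnfsf4, Tnfsf9, Tnfsf11, Tnfrsf22 and Tnfrsf26, beside 3.85% of all genes tested. Restricted to genes with a mean above 5 FPKM, which alone can meet the criteria, the shares were 16.7% lower and 29.2% higher of 24 members against 7.08% and 6.25% of 9095 genes. The libraries of the 2 genotypes did not overlap in 8 members on the lower side and 8 on the higher side, beside 20.2% and 24.4% of all genes tested. The median log2 fold change was 0.10 over the tested members, 0.43 over the 10 ligands and 0.08 over the 19 receptors, and 0.03 over all genes tested. These calls depend on all 4 libraries, and fewer members met the list criteria with any 1 library left out. Such a fit has only 1 library in a genotype, so a lost call does not tell a smaller difference from a weaker test. The log2 fold changes of the members named above kept their sign in these fits. They ranged from 0.453 to 0.548 for Tnfsf4, 0.461 to 1.2 for Tnf, -2.35 to -1.66 for Cd40 and -1.31 to -0.567 for Cd27.

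**Figure D1:**
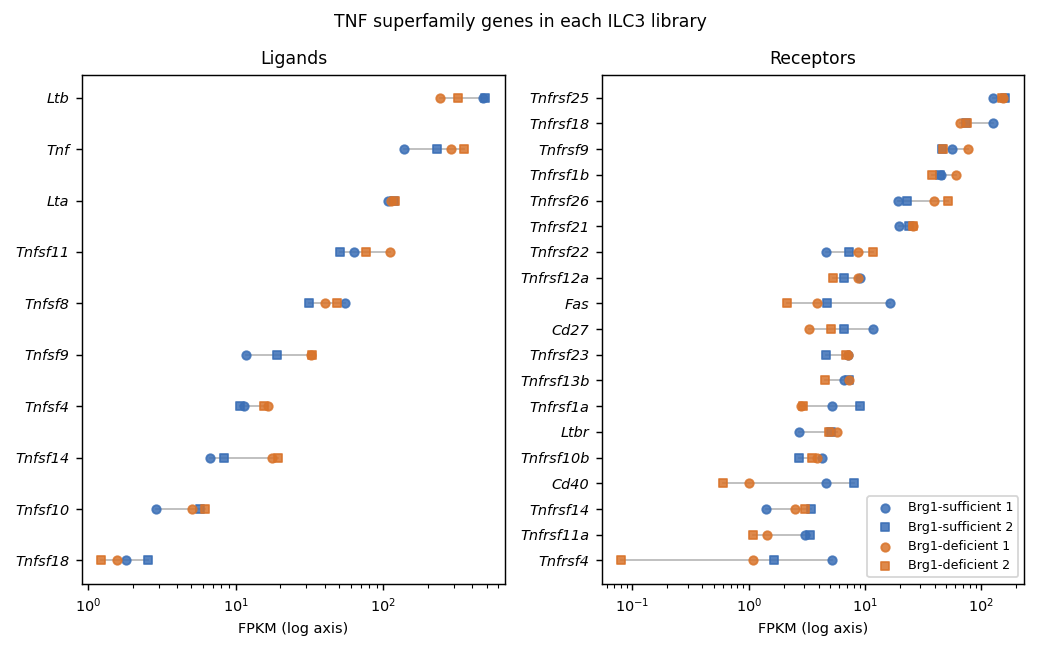
FPKM (log axis) of the 10 tested ligands and 19 tested receptors in each library, blue for Brg1-sufficient and orange for Brg1-deficient, with circles for library 1 and squares for library 2 and a gray line over the range. Ltb heads the ligands in blue and Tnf in the orange libraries, and the receptors run from Tnfrsf25, above 126 FPKM throughout, down to Tnfrsf4, at 0.08 FPKM in Brg1-deficient library 2.

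Ltb encodes lymphotoxin β, which anchors the lymphotoxin heterotrimer to the membrane. It was the most abundant member in Brg1-sufficient ILC3s, at 473 and 491 FPKM, and stood at 243 and 317 FPKM in Brg1-deficient ILC3s. The groups did not overlap, and the mean went from 482 ± 12.8 to 280 ± 52.8 FPKM (SD, n = 2 each). The log2 fold change was -0.79 ± 0.17 (SE, 95% interval -1.22 to -0.36, adjusted p = 0.16).

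Tnf encodes the founding cytokine of the family, an inducer of inflammation and, through its receptors, of NF-κB or cell death. Its level was 138 and 232 FPKM in Brg1-sufficient and 288 and 353 FPKM in Brg1-deficient ILC3s, so that both deficient libraries lay above both sufficient ones. The mean went from 185 ± 66.0 to 321 ± 45.8 FPKM (SD, n = 2 each), 1.73 times as high, with a log2 fold change of 0.83 ± 0.27 (SE, 95% interval 0.15 to 1.52, adjusted p = 0.316). Without Brg1-sufficient library 1 it was 0.46, and Tnf no longer met the list criteria. Within each genotype Tnf was higher in library 2, as was the macrophage gene Lyz2, at 84.1 and 203 FPKM in Brg1-sufficient and 64.4 and 192 FPKM in Brg1-deficient libraries. This was not particular to Tnf, since other members, among them Ltb, Lta, Tnfsf9 and Tnfsf14, were also higher in library 2 of both genotypes. Lyz2 did not separate the genotypes, and its part in the Tnf values was not tested.

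Lta encodes lymphotoxin α, which forms secreted homotrimers or joins lymphotoxin β on the membrane. It was at 107 and 118 FPKM in Brg1-sufficient and 113 and 119 FPKM in Brg1-deficient ILC3s, and the ranges overlapped. The log2 fold change was 0.05 with a 95% interval of -0.29 to 0.39, the narrowest among the members, so that a change as large as that of Ltb or Tnf lay outside it.

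These 3 genes share a segment of 10.9 kb on chromosome 17 of GRCm38, within the major histocompatibility complex. Ltb lies at chr17:35194439-35196320 on the plus strand, Tnf at chr17:35199381-35202007 on the minus strand and Lta at chr17:35203165-35205351 on the minus strand. The gaps are 3.06 kb between Ltb and Tnf and 1.16 kb between Tnf and Lta. Within a library, the ratio of Tnf to Ltb was 0.293 and 0.472 in Brg1-sufficient and 1.19 and 1.11 in Brg1-deficient ILC3s, so the more abundant of the pair was Ltb in the former and Tnf in the latter. The ratio of Lta to Ltb was 0.225 and 0.24 in Brg1-sufficient and 0.464 and 0.376 in Brg1-deficient libraries.

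**Figure D2:**
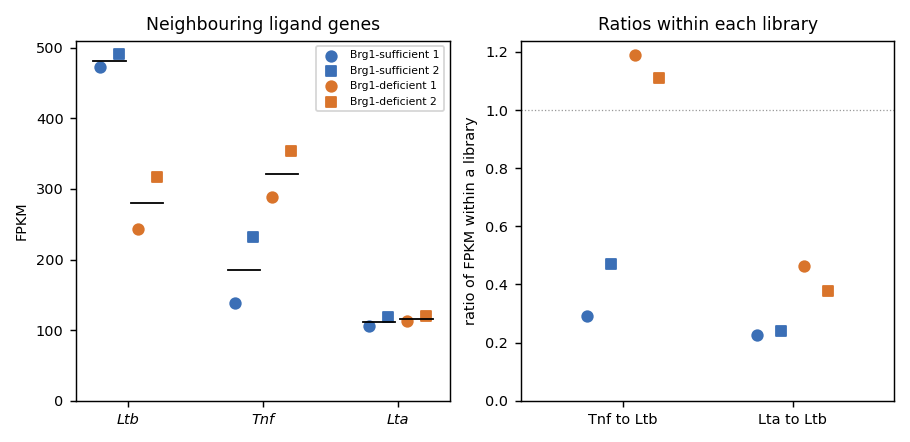
Left, FPKM of Ltb, Tnf and Lta in each library (blue Brg1-sufficient, orange Brg1-deficient, circles library 1, squares library 2) with group means as black lines. Right, the ratio of Tnf or Lta to Ltb within each library, where the dotted line marks equal levels and only the orange points for Tnf to Ltb lie above it, at 1.19 and 1.11.

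Tnfsf14 encodes LIGHT, which binds the lymphotoxin β receptor and HVEM and co-stimulates T cells. It was at 6.64 and 8.34 FPKM in Brg1-sufficient and 17.6 and 19.5 FPKM in Brg1-deficient ILC3s. The group means were 7.49 ± 1.2 and 18.5 ± 1.3 FPKM (SD, n = 2 each), and the log2 fold change of 1.21 ± 0.19 was the highest of all tested members (SE, 95% interval 0.74 to 1.68, adjusted p = 0.0951).

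Among the co-stimulatory ligands, which act on T cells and other lymphocytes that carry the matching receptor, 4 of 7 were tested. Tnfsf9, encoding 4-1BBL, was at 11.7 and 18.9 FPKM in Brg1-sufficient and 32.1 and 32.9 FPKM in Brg1-deficient ILC3s, a log2 fold change of 1.08 ± 0.25 (SE, adjusted p = 0.18). The deficient libraries agreed closely, while the sufficient ones lay further apart. Tnfsf4, encoding OX40L, was at 11.4 and 10.7 FPKM against 16.6 and 15.5 FPKM, again without overlap, and its mean was 1.45 times as high (adjusted p = 0.308). Tnfsf8, encoding CD30L, was at 55.0 and 31.4 FPKM against 40.5 and 48.4 FPKM, and here the ranges overlapped. Tnfsf18, encoding GITRL, was at 1.80 and 2.56 FPKM against 1.56 and 1.23 FPKM, with a 95% interval for its log2 fold change of -1.16 to 0.36. The remaining co-stimulatory ligands, Tnfsf15 (TL1A), Cd70 and Cd40lg, did not exceed 0.48 FPKM in any library. Tnfsf9 and Tnfsf14 lie at either end of an 88.9 kb segment of chromosome 17 with Cd70 between them, and so the ligands that flank a gene near the floor were the ones with the highest fold changes.

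Tnfsf11 encodes RANKL, which drives osteoclast formation, lymph node development and the differentiation of microfold cells in the gut epithelium. It was at 62.8 and 50.9 FPKM in Brg1-sufficient and 110 and 76.3 FPKM in Brg1-deficient ILC3s. The groups did not overlap, and the log2 fold change was 0.69 ± 0.22 (SE, 95% interval 0.12 to 1.25, adjusted p = 0.314). Without Brg1-deficient library 1 it was 0.43, and the list criteria were not met with any 1 of the 4 libraries left out.

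The death ligands were low. Tnfsf10, encoding TRAIL, was at 2.87 and 5.74 FPKM against 5.05 and 6.18 FPKM with overlapping ranges. Fasl was between 0.39 and 1.14 FPKM in all libraries and was not tested. The ligands of B cell survival and of tissue growth, Tnfsf12 (TWEAK), Tnfsf13 (APRIL), Tnfsf13b (BAFF), Tnfsfm13 and Eda, were all at 1 FPKM or below. Tnfsfm13 is a joined transcript that overlaps Tnfsf12 and Tnfsf13 on the same strand of chromosome 11, so reads could be split among these 3 genes and their values are uncertain.

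**Figure D3:**
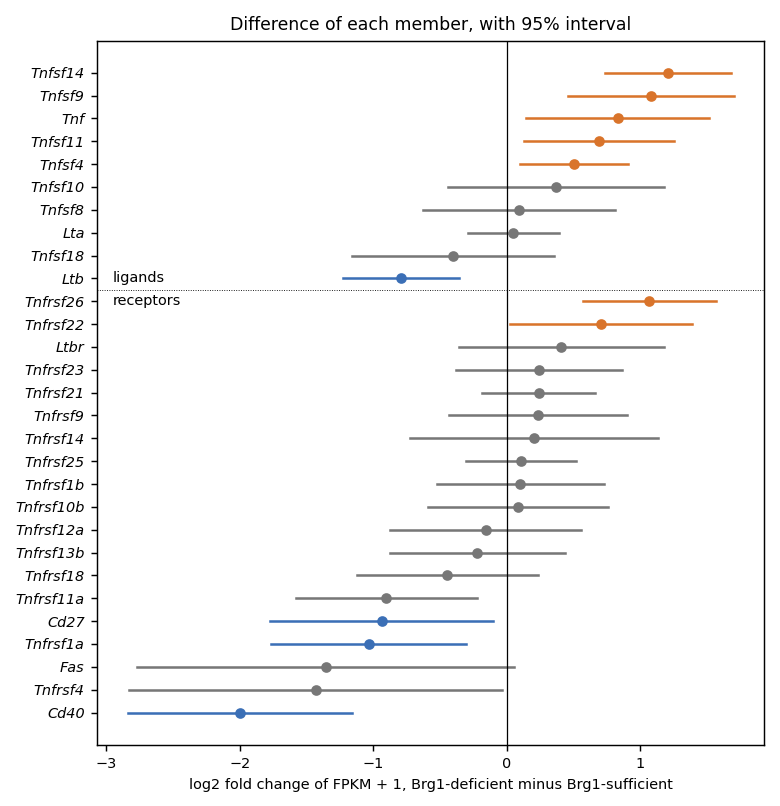
Log2 fold change of FPKM + 1, Brg1-deficient minus Brg1-sufficient, for the 29 tested members with 95% intervals from limma, ligands above the dotted line and receptors below it. Orange and blue mark members that met the list criteria as higher or lower, from 1.21 for Tnfsf14 to -2.0 for Cd40, and gray marks the others, of which Tnfrsf11a and Tnfrsf4 also have intervals below 0.

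Among the receptors for TNF and the lymphotoxins, Tnfrsf1a, encoding the death domain receptor TNFR1, was at 5.25 and 9.07 FPKM in Brg1-sufficient and 2.80 and 2.95 FPKM in Brg1-deficient ILC3s. Both deficient libraries lay below both sufficient ones, with a log2 fold change of -1.03 ± 0.29 (SE, 95% interval -1.77 to -0.30, adjusted p = 0.247). Tnfrsf1b, encoding TNFR2, which lacks a death domain, was at 45.0 and 44.5 FPKM against 61.2 and 37.6 FPKM, and the ranges overlapped. The ratio of Tnfrsf1b to Tnfrsf1a within a library was 8.57 and 4.91 in Brg1-sufficient and 21.8 and 12.8 in Brg1-deficient ILC3s. The lymphotoxin β receptor gene Ltbr, mainly known from stromal and myeloid cells, was at 2.70 and 5.14 FPKM against 5.72 and 4.94 FPKM. Tnfrsf14, encoding HVEM, was at 1.4 and 3.46 FPKM against 2.50 and 3.05 FPKM. Neither separated the genotypes, and the 95% intervals of their log2 fold changes were wide, -0.36 to 1.17 for Ltbr and -0.73 to 1.13 for Tnfrsf14.

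The co-stimulatory receptors held both the most abundant receptors of the family and those with the lowest fold changes. Tnfrsf25, encoding DR3, the receptor for TL1A, was at 126 and 161 FPKM in Brg1-sufficient and 154 and 152 FPKM in Brg1-deficient ILC3s, with a log2 fold change of 0.10 (95% interval -0.31 to 0.52). Tnfrsf18, encoding GITR, was at 126 and 74.1 FPKM against 65.8 and 75.9 FPKM, and Tnfrsf9, encoding 4-1BB, at 56.5 and 45.8 FPKM against 76.4 and 47.0 FPKM. These 3 receptors had overlapping ranges.

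Cd40, the receptor through which T cells activate B cells and dendritic cells, was at 4.65 and 8.09 FPKM in Brg1-sufficient and 1 and 0.60 FPKM once Brg1 was deficient. The log2 fold change of -2.0 ± 0.33 was the lowest of all members (SE, 95% interval -2.84 to -1.16, adjusted p = 0.104), and the deficient mean was 0.126 of the sufficient mean. Of the B cell markers, Cd79b was at 8.68 and 10.02 FPKM in Brg1-sufficient and 1.03 and 0.99 FPKM in Brg1-deficient libraries (adjusted p = 0.0386), while Cd79a, Ms4a1, Jchain and Pax5 did not exceed 0.77 FPKM in any library. Of the 9 myeloid markers tested, 3 were lower without overlap in Brg1-deficient libraries and 6 overlapped. Of all genes tested, 20.2% were lower without overlap. The summed level of the myeloid list was 150 and 335 FPKM against 109 and 296 FPKM, so the sum overlapped between genotypes. Lyz2, C1qa and C1qb supplied most of this sum in every library. The lower markers were Adgre1, Itgam and S100a8. Adgre1 met the list criteria, at 5.76 and 6 FPKM in Brg1-sufficient and 2.09 and 3.67 FPKM in Brg1-deficient libraries. Both donors lacked Rag1 and the hosts Rag2, so the Cd79b values are not read as mature B cells. The part of myeloid or other cells in the Cd40 values was not tested.

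Cd27, a co-stimulatory receptor of T, B and NK cells, was at 11.8 and 6.63 FPKM in Brg1-sufficient and 3.32 and 5.14 FPKM in Brg1-deficient ILC3s (log2 fold change -0.94 ± 0.33 SE, adjusted p = 0.345). Tnfrsf4, encoding OX40, was at 5.22 and 1.66 FPKM against 1.10 and 0.08 FPKM (log2 fold change -1.43, 95% interval -2.83 to -0.03, adjusted p = 0.384) and was too low to meet the list criteria. Both were highest in Brg1-sufficient library 1, as were Tnfrsf18 and Fas. Tnfrsf8, encoding CD30, did not exceed 0.50 FPKM.

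Fas, the death receptor for Fas ligand, was at 16.5 and 4.75 FPKM in Brg1-sufficient and 3.88 and 2.14 FPKM in Brg1-deficient ILC3s. The groups did not overlap, but the sufficient libraries lay far apart, and the 95% interval of the log2 fold change ran from -2.77 to 0.05. The summed levels of the ILC2 and of the T cell markers were also highest in Brg1-sufficient library 1, although the ILC2 marker Areg was higher in Brg1-sufficient library 2. The summed level of the 7 ILC2 markers was 180 and 90.9 FPKM in Brg1-sufficient and 20.5 and 15.6 FPKM in Brg1-deficient libraries, and all 6 that were tested were lower without overlap. Ccr8, an ILC2 marker, was at 51.7 and 8.41 FPKM against 0.23 and 0.24 FPKM. The summed level of the 6 T cell markers was 57.4 and 23.1 FPKM against 4.47 and 11.7 FPKM, and all 4 tested were lower without overlap. Beside both lists, 20.2% of all genes tested were lower without overlap. Both donors lacked Rag1 and the hosts Rag2, so the T cell markers are not read as mature T cells. What the cells behind the ILC2 and T cell transcripts contributed to the values of Fas, Tnfrsf4, Cd27 and Tnfrsf18 was not tested. Without Brg1-sufficient library 1 the log2 fold changes were -0.56 for Fas, -0.82 for Tnfrsf4, -0.57 for Cd27 and -0.07 for Tnfrsf18. Without Brg1-sufficient library 2 they were -2.16, -2.05, -1.31 and -0.823 in the same order. With all libraries, only Cd27 of these 4 genes met the list criteria.

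**Figure D4:**
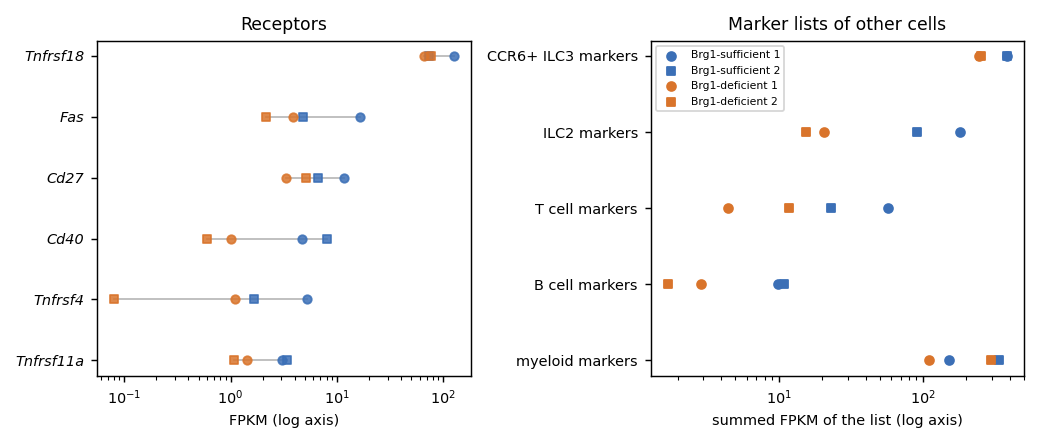
Left, FPKM (log axis) of 6 receptors in each library. Right, summed FPKM (log axis) of the marker lists of CCR6+ ILC3s and of other cells in the same libraries, blue Brg1-sufficient, orange Brg1-deficient, circles library 1, squares library 2. Brg1-sufficient library 1 is the highest for Tnfrsf18, Fas, Cd27 and Tnfrsf4 and for the ILC2 and T cell lists, at 180 and 57.4 FPKM, while Cd40 is highest in Brg1-sufficient library 2.

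Tnfrsf11a encodes RANK, the signaling receptor of RANKL. It was at 3.07 and 3.36 FPKM in Brg1-sufficient and 1.44 and 1.08 FPKM in Brg1-deficient ILC3s, without overlap and with close duplicates, and its log2 fold change was -0.90 ± 0.27 (SE, 95% interval -1.58 to -0.22, adjusted p = 0.267). Its level was below the 5 FPKM that the list criteria ask for. Tnfrsf11b, encoding osteoprotegerin, the soluble decoy for RANKL, was at 0.14 and 0.16 FPKM against 0.66 and 0.62 FPKM and was not tested. Ccr6, the marker of CCR6+ ILC3s, was at 186 and 203 FPKM in Brg1-sufficient and 92.9 and 106 FPKM in Brg1-deficient libraries (adjusted p = 0.0901). Cd4 and Nrp1 were likewise lower without overlap, whereas Cxcr5, the fourth gene of that list, was higher, at 63.1 and 65.8 FPKM against 85.9 and 77.7 FPKM. The list's part in the values of Tnfrsf11a and of Ltb was not tested.

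Tnfrsf26, Tnfrsf22 and Tnfrsf23 form a 78.2 kb cluster on chromosome 7 (chr7:143607659-143685872 of GRCm38). Tnfrsf26, which has no known ligand, was at 19.2 and 23.2 FPKM in Brg1-sufficient and 39.6 and 51.8 FPKM in Brg1-deficient ILC3s, a log2 fold change of 1.07 ± 0.20 (SE, 95% interval 0.57 to 1.57, adjusted p = 0.119). Tnfrsf22, a decoy receptor for TRAIL, was at 4.61 and 7.26 FPKM against 8.70 and 11.7 FPKM (log2 fold change 0.70, adjusted p = 0.382). Its fold change was 0.42 without Brg1-sufficient library 1, and it did not meet the list criteria with any 1 library left out. Tnfrsf23, the other decoy for TRAIL, was at 7.21 and 4.65 FPKM against 7.17 and 6.91 FPKM, and its ranges overlapped. The 3 genes lie on the same strand with gaps of 6.08 and 16.15 kb and are similar in sequence, so that short reads could be divided among them and the split between Tnfrsf22 and Tnfrsf23 is uncertain. Tnfrsf10b, the receptor through which TRAIL kills, was at 4.26 and 2.71 FPKM against 3.89 and 3.48 FPKM. Tnfrsf21, encoding DR6, was at 19.6 and 24 FPKM against 25.8 and 25.7 FPKM, without overlap but with a 95% interval of -0.18 to 0.66 on the log2 scale.

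Of the remaining receptors, Tnfrsf12a, encoding the TWEAK receptor Fn14, was at 9.06 and 6.59 FPKM in Brg1-sufficient and 8.65 and 5.34 FPKM in Brg1-deficient ILC3s. Tnfrsf13b, encoding TACI, which binds BAFF and APRIL, was at 6.58 and 7.25 FPKM against 7.32 and 4.51 FPKM. Both had overlapping ranges. Tnfrsf13c (BAFF receptor), Tnfrsf17 (BCMA), Tnfrsf19 and Ngfr did not exceed 0.62 FPKM in any library. Of 3 relatives whose symbols fall outside the rule, Relt was at 1.12 and 2.61 FPKM against 0.96 and 0.77 FPKM (adjusted p = 0.607), and Edar and Eda2r did not exceed 0.32 FPKM.

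Ligands were next set beside their receptors. Of 27 known pairs, 13 had both genes tested. By the sign of the log2 fold change, 4 had a higher ligand and a lower receptor, 7 had both higher, 1 had both lower, and in 1, Ltb and Ltbr, the ligand was lower and the receptor higher. The pairs share genes and their signs include differences well within the spread between libraries. In 3 pairs neither gene's libraries overlapped between genotypes: Tnf with Tnfrsf1a, Tnfsf11 with Tnfrsf11a and Tnfsf4 with Tnfrsf4. The ligand was higher and the receptor lower in each. Of all genes tested, 24.4% were higher and 20.2% lower without overlap. Whether 3 of 13 pairs exceed what these shares would give was not tested. Tnfrsf11a and Tnfrsf4 did not exceed 3.36 and 5.22 FPKM in any library. The ratio of Tnf to Tnfrsf1a within a library was 26.3 and 25.5 in Brg1-sufficient and 103 and 120 in Brg1-deficient ILC3s. The ratio of Tnfsf11 to Tnfrsf11a was 20.5 and 15.1 against 76.4 and 70.7. For Tnfsf4 and Tnfrsf4 the ratio was 2.18 and 6.46 against 15.1 and 194, the last of which rests on a receptor level of 0.08 FPKM. Tnfsf14 to Ltbr, the pair in which the ligand differed most, had a ratio of 2.46 and 1.62 against 3.08 and 3.94. Several receptors were present while their ligand was near the floor: Tnfrsf25 above 126 FPKM with Tnfsf15 at most 0.48 FPKM, and Fas, Cd27 and Cd40 with Fasl, Cd70 and Cd40lg at most 1.14 FPKM.

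**Figure D5:**
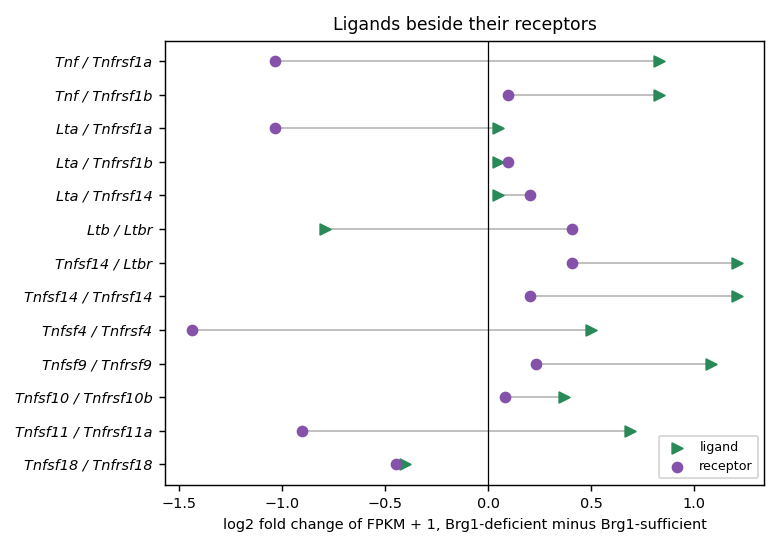
Log2 fold change of FPKM + 1, Brg1-deficient minus Brg1-sufficient, for the ligand (green triangle) and receptor (purple circle) of the 13 pairs with both genes tested, joined by a gray line. The lines cross 0 from receptor to ligand in the pairs Tnf/Tnfrsf1a, Lta/Tnfrsf1a, Tnfsf4/Tnfrsf4 and Tnfsf11/Tnfrsf11a, while Ltb/Ltbr crosses the other way, from -0.79 for Ltb to 0.41 for Ltbr.

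Downstream of these receptors, 48 genes of adaptors, ubiquitin enzymes, kinases, NF-κB proteins, death effectors and shedding enzymes were listed and 47 were tested. None had an adjusted p under 0.05 with limma, 4 were lower and 2 higher at an unadjusted p under 0.05, and these 6 also met the list criteria. Across all genes tested, 12.6% passed that unadjusted threshold. The libraries did not overlap in 9 on the lower and 11 on the higher side, 42.6% in all, beside 20.2% and 24.4% of all genes tested, and the median log2 fold change was 0.03, as over all genes. The list was therefore close to the background in its share of separated genes. Nfkbia, encoding the NF-κB inhibitor IκBα, was the most abundant of the list, at 4831 and 4924 FPKM in Brg1-sufficient and 6828 and 7210 FPKM in Brg1-deficient ILC3s (log2 fold change 0.52 ± 0.15 SE, adjusted p = 0.251). Mlkl, the effector of necroptosis, was at 1.74 and 4.30 FPKM against 9.06 and 9.43 FPKM (adjusted p = 0.195). The adaptor genes Traf4 and Tank were also on the lower side, with log2 fold changes of -0.75 and -0.57 (adjusted p = 0.349 and 0.244). Furin, a protease that processes several members of the family, was at 120 and 154 FPKM against 98.4 and 83.6 FPKM (adjusted p = 0.294). Tnfaip3, encoding the inhibitor A20, was at 762 and 884 FPKM against 976 and 780 FPKM and overlapped. The NF-κB subunit genes Nfkb1, Nfkb2, Rela, Rel and Relb overlapped between genotypes as well.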

How the data were processed

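Poly-A RNA of sorted ILC3s was sequenced as single-end reads. The authors mapped reads to GRCm38.p5 with STAR (version 2.5) and quantified genes with RSEM (version 1.2) on GENCODE M16, and the deposited values are FPKM per gene and library, rounded to 0.01. The authors tested differences with edgeR. The table's own comparison columns were not used. The table holds FPKM only, so limma was used in place of a count test, and depth is unknown. Sorted values were nearly the same in all 4 libraries: 99.3% of 13693 ranks lay within 1%, so the deposited FPKM had been brought to a common distribution by a step that is not given in the sources used here. A shift of total RNA between genotypes could not be seen in such values. The strand used in counting was not given.

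Groups came from the sample titles. Genes with a mean above 1 FPKM in either group were tested with limma (version 3.58.1, R 4.3.3; lmFit, eBayes with a trend) on log2(FPKM + 1), a scale that shrinks differences of low genes, with Benjamini-Hochberg adjustment over all 14739 genes. The script was tested on simulated data. An exact permutation test of 2 against 2 libraries cannot go below p = 0.33 and was not used. The alternatives were a replicate block, a pseudocount of 0.1, no filter, no trend, quantile normalization and leaving out each library. Every tested member was named with its values, untested members by range, and pathway and marker genes where they met a criterion or headed their list. A few items of the lists are not reported here. Members, pathway genes, markers and pairs were chosen with earlier results of these data known. Positions came from GENCODE M21, in which all 44 members were found by gene identifier.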

Additional observations from a re-analysis of the deposited data

How the results depend on the processing

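Of the 116 log2 fold changes of single members with a library left out, 13 reversed. They concerned 11 members whose genotypes overlapped, with these log2 fold changes from lowest to highest: Lta -0.0241 to 0.121, Tnfsf8 -0.307 to 0.481, Tnfsf10 -0.0323 to 0.768, Tnfrsf1b -0.245 to 0.442, Tnfrsf14 -0.244 to 0.65, Tnfrsf9 -0.112 to 0.578, Tnfrsf25 -0.0703 to 0.277, Tnfrsf10b -0.168 to 0.335, Tnfrsf23 -0.0304 to 0.509, Tnfrsf12a -0.463 to 0.143 and Tnfrsf13b -0.521 to 0.0733. In these fits the lone library is assumed to vary like the other group. Members meeting the list criteria then numbered 0 to 3 lower and 0 to 5 higher, and signaling genes 0 to 2 lower and 0 to 2 higher, while 0 members reached an adjusted p under 0.05. With the filter left out, where more genes were tested, 2 members were lower (Cd40, Ltb) and 2 higher (Tnfrsf26, Tnfsf14) by the list criteria, with 0 signaling genes lower and 1 higher. Without the trend, 4 members were higher and 2 signaling genes lower, and the cause was not tested. A pseudocount of 0.1 left the same 11 members. Quantile normalization acted on values already at a common distribution, and the block, the filter and the trend leave fold changes as they are, so these say nothing about the stability of the folds.

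With the replicate number as a block, 1 member was lower (Cd40, adjusted p = 0.0244) and 3 higher (Tnfsf14 at 0.0178, Tnfsf9 at 0.0352, Tnfrsf26 at 0.0176) at an adjusted p under 0.05, as was 1 signaling gene, higher. Over all genes the block gave 248 lower and 150 higher, against 33 and 12 without it. The deviations of same-numbered libraries correlated at -0.000386 over 14739 genes and at 0.393 over the 29 tested members, and the labels do not say that a number marks shared hosts, so the numbers were not taken as pairs. With 2 libraries a genotype and no counts, differences smaller than the intervals given could not be resolved.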
